A study of Homo sapiens with 27 samples.

Results

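NEAT1, the architectural RNA of paraspeckles, its neighbour MALAT1 and the genes of 6 paraspeckle proteins (NONO, SFPQ, PSPC1, RBM14, MATR3 and HNRNPK) were followed through CARM1 knockdown in 3 acute myeloid leukaemia cell lines. The members were all rows of the gene table that carry 1 of these 8 symbols, which gave 10 of its 57992 rows. MATR3 had 2 rows (ENSG00000015479 and ENSG00000280987), whose annotated exons overlap, and MALAT1 had a second row (ENSG00000278217) for a short RNA inside it. That short row was at 0 in all 27 libraries, and the other 9 rows passed the filter on low counts and were tested.

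Paraspeckles are nuclear bodies built on the long isoform of NEAT1, whose middle binds NONO and SFPQ, which with PSPC1 form a family of RNA-binding proteins that pair with each other. RBM14 and HNRNPK are needed for paraspeckles to form, and MATR3 is a nuclear matrix protein that binds RNA and is found with the same partners. Paraspeckles hold back RNAs with inverted Alu repeats in the nucleus through NONO, and CARM1 (also called PRMT4) is an arginine methyltransferase known to methylate NONO and to weaken this retention. It has also been reported to lower NEAT1 transcription. MALAT1, transcribed from the same stretch of chromosome 11 as NEAT1, belongs to nuclear speckles, the neighbouring bodies rich in splicing factors.

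MOLM-13 and MV411 carry KMT2A fusions, and SKNO1 carries RUNX1-RUNX1T1. Each line had 3 groups of 3 libraries: a scramble hairpin (shScramble) and 2 hairpins against CARM1, each from a constitutive lentivirus, with RNA taken on day 3. All 9 SKNO1 libraries were grown with 10 ng/mL GM-CSF and the other lines without it, so line and medium cannot be told apart. The labels do not say whether replicates were separate cultures, so p-values measure only the spread between these samples, which may be technical.

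Totals ranged from 25063577 to 53291599 counts per library. PTPRC, CD33 and SPI1 were present in every library, whereas MPO was at 1.46 to 3.56 CPM (counts relative to the TMM-scaled library size) in MV411, CEBPA and LYZ were at 4.28 to 9.50 and 8.84 to 20.8 CPM in SKNO1, KIT was at 0.214 to 0.846 CPM in MOLM-13, and CD34 was at no more than 5 counts in any library. Among markers of other cell types, CD3E, EPCAM and COL1A1 were at no more than 16 counts in any library. PECAM1 ranged from 53.6 to 110.1 CPM in scramble and 99.5 to 279 in knockdown libraries of MOLM-13, from 40.7 to 50.7 and 35.2 to 120.4 in MV411, and from 5.29 to 9.53 and 3.13 to 10.98 in SKNO1, and its part in the results was not tested. Mitochondrial rRNA and other abundant structured RNAs took a larger share of counts after knockdown. That share was 36.4% to 38.8% in MOLM-13 scramble libraries and 40.9% to 52.1% in its knockdown libraries, 36.6% to 39.2% and 42.0% to 50.6% in MV411, and 17.7% to 19.96% and 23.4% to 28.7% in SKNO1. Its part in the results was not tested. A fit left out a wider set: these RNAs and all others with symbols starting with MT-, RN7SL or RN7SK. Calls that changed in it are given with the gene.

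Positions of the members are given on GRCh38 with GENCODE 29. NEAT1 (ENSG00000245532, chr11:65422774-65445540) and MALAT1 (ENSG00000251562, chr11:65497688-65506516) lie on the plus strand of chromosome 11, and RBM14 (ENSG00000239306, chr11:66616582-66627347) lies further along the same strand. NEAT1 has a long transcript of 22743 bases, and its short ones (of 3524 and 3441 bases) lie within the same span near its start. Gene counts do not separate the short from the long form. The sequences below belong to MALAT1 and RBM14, the members that passed the test in more than 1 line: the bases before the annotated start of RBM14 (chr11:66616380-66616581, plus strand), those before the start of MALAT1 (chr11:65497488-65497687, plus strand), both from RefSeq on GRCh38.p14, and the short RNA inside MALAT1 whose row held no counts (chr11:65502914-65503008, plus strand, GENCODE 29). Capitals mark CCAAT or its reverse complement ATTGG, and GGGCGG or its reverse complement CCGCCC.
RBM14: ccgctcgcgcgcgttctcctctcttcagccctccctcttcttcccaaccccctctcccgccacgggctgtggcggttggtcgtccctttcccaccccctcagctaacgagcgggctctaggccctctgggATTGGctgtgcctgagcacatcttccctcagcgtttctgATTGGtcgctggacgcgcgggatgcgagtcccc
MALAT1: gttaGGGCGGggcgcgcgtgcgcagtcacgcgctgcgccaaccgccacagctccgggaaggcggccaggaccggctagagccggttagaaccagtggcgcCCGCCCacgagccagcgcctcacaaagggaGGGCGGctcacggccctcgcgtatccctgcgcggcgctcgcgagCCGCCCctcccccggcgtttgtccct
MALAT1 element: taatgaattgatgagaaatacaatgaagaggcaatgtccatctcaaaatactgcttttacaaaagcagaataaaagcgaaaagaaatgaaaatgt
The printed RBM14 stretch holds 2 ATTGG, and the MALAT1 stretch holds 4 matches to GGGCGG on either strand. Of 35116 RefSeq windows of 300 bases, 34.6% hold CCAAT or ATTGG and 45.0% hold GGGCGG or CCGCCC. Those windows run from 250 bases before the start to 50 after it and are longer than the printed stretches. The full window of RBM14 holds 3 matches to CCAAT on either strand. That of MALAT1 holds 5 matches to GGGCGG, while a second MALAT1 window holds 0. The short RNA matches MALAT1-202 from base 5153 on, so each of its bases is also a base of MALAT1.

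CARM1 itself (ENSG00000142453, chr19:10871513-10923070, plus strand) had no overlap between the 18 knockdown libraries and the scramble libraries of their lines, and knockdown was always the lower. In MOLM-13 it was at 20.3, 29.6 and 25.0 CPM in scramble replicates 1, 2 and 3, at 2.77, 5.86 and 5.61 with hairpin 1 and at 4.87, 4.22 and 2.82 with hairpin 2. In MV411 it was at 22.8, 23.3 and 24.6 with scramble, 5.79, 6.17 and 6.39 with hairpin 1 and 2.67, 3.65 and 2.56 with hairpin 2. In SKNO1 it was at 16.2, 17.0 and 20.3 with scramble, 8.07, 5.66 and 8.77 with hairpin 1 and 2.75, 2.69 and 2.85 with hairpin 2. CARM1 fell in the pooled comparison in MOLM-13 and MV411 (adjusted p = 0.000112 and 0.000956) and with each hairpin of SKNO1 (adjusted p = 0.0214 and 3.33e-05), where the pooled comparison had adjusted p = 0.0702.

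NEAT1 rose in MOLM-13. In bulk RNA such as this, fewer cells of a type and less RNA per cell cannot be told apart. NEAT1 stood at 516, 348 and 387 CPM in scramble replicates 1, 2 and 3, at 821, 583 and 727 with hairpin 1, and at 1200, 1035 and 589 with hairpin 2. Every knockdown library was above every scramble library, and the highest 2 libraries were both of hairpin 2. The log2 fold change was 1.04 ± 0.27 (SE; 2.05-fold; edgeR adjusted p = 0.025). With hairpin 2 alone it was 1.24 ± 0.29 (adjusted p = 0.0256), and with hairpin 1 alone 0.80 ± 0.28, which did not pass (adjusted p = 0.123; 0.044 in DESeq2; 0.0365 without a filter on low counts). Both hairpins were compared with the same 3 scramble libraries. The pooled call was lost without scramble replicate 2 (0.91, adjusted p = 0.123) or scramble replicate 3 (0.99, adjusted p = 0.108), and with scaling by library totals alone (0.88, adjusted p = 0.0631). The call of hairpin 2 was lost without scramble replicate 2 or 3 or hairpin 2 replicate 1 or 2 (adjusted p = 0.117, 0.101, 0.0649 and 0.0642).

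In MV411 the NEAT1 libraries spread widely within each group. Scramble replicates 1, 2 and 3 held 288, 529 and 226 CPM, hairpin 1 libraries 403, 318 and 296, and hairpin 2 libraries 534, 783 and 333. The groups overlapped, since scramble replicate 2 was above all 3 hairpin 1 libraries, and replicate 2 was the highest with scramble and with hairpin 2. The difference was 0.38 ± 0.35 (adjusted p = 0.621) for the pooled knockdown, -0.04 ± 0.34 (adjusted p = 0.973) for hairpin 1 and 0.70 ± 0.35 (adjusted p = 0.2) for hairpin 2. No label pairs the MV411 libraries, and replicate numbers were taken as pairs there from correlations in these same data. With the replicate number as a block hairpin 2 passed the test (0.69, adjusted p = 0.0311) while the pooled knockdown did not (0.42, adjusted p = 0.4). It also passed without scramble replicate 2 (1.11, adjusted p = 0.0432) and without a filter on low counts (0.67, adjusted p = 0.00468).

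In SKNO1 NEAT1 was at 718, 635 and 726 CPM with scramble, 972, 525 and 356 with hairpin 1, and 1114, 826 and 873 with hairpin 2. All hairpin 2 libraries were above all scramble libraries, while those of hairpin 1 lay on both sides of them. Neither difference passed (hairpin 1 -0.16 ± 0.28, adjusted p = 0.829; hairpin 2 0.43 ± 0.29, adjusted p = 0.373). In all lines combined the log2 fold change of NEAT1 was 0.51 ± 0.20 and did not pass (adjusted p = 0.0688). It did pass in DESeq2 (0.53, adjusted p = 0.0395), without MV411 scramble replicate 2 (0.64, adjusted p = 0.0255), without SKNO1 hairpin 1 replicate 2 or 3 (adjusted p = 0.0458 and 0.0256), and with the hairpins as separate groups (0.48, adjusted p = 0.0498).

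**Figure D1:**
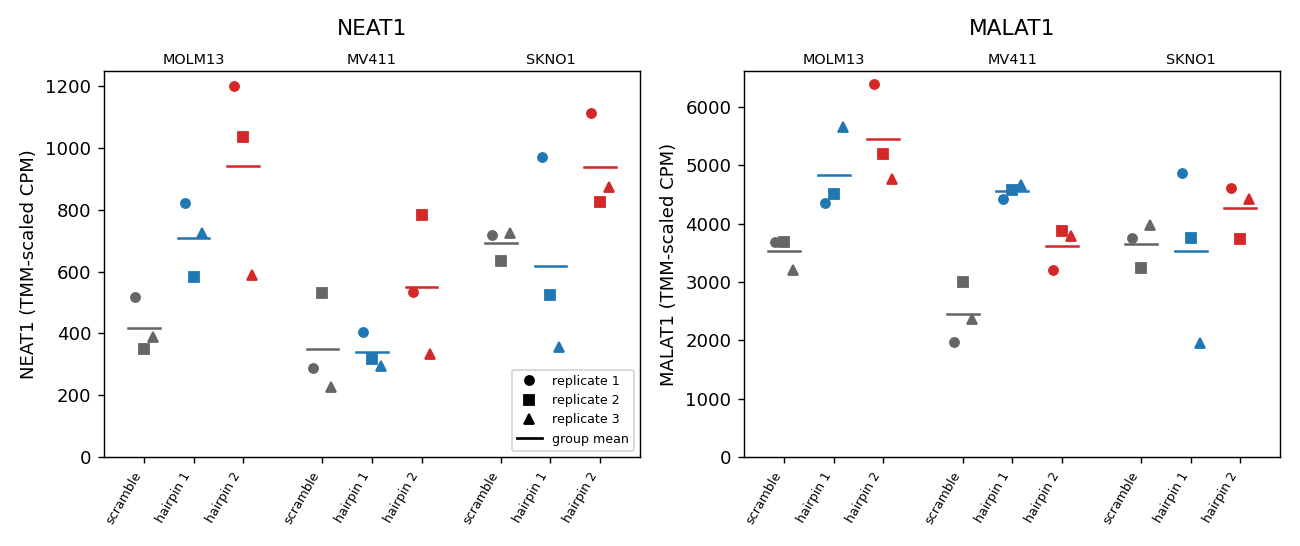
TMM-scaled CPM (y axes, from 0) of NEAT1 and MALAT1 in each of the 27 libraries by line and hairpin (x axes), with the marker shape giving the replicate number and bars the group means. In MOLM-13 all knockdown libraries lie above all scramble libraries for both RNAs, and in MV411 this holds for MALAT1. In SKNO1 pooled knockdown and scramble libraries overlap for both RNAs, though all hairpin 2 libraries lie above all scramble libraries for NEAT1.

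MALAT1 rose in MOLM-13 and MV411. In MOLM-13 it was at 3692, 3676 and 3208 CPM with scramble, 4353, 4503 and 5659 with hairpin 1 and 6389, 5190 and 4761 with hairpin 2. No knockdown library reached down to the scramble libraries, and the log2 fold change was 0.59 ± 0.16 (1.51-fold; adjusted p = 0.0291). In MV411 scramble libraries held 1978, 3002 and 2371 CPM, hairpin 1 libraries 4417, 4579 and 4665, and hairpin 2 libraries 3212, 3875 and 3783. These groups did not overlap either, the hairpin 1 libraries were the highest, and the log2 fold change was 0.75 ± 0.17 (1.69-fold; adjusted p = 0.0251).

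By hairpin, MALAT1 passed with hairpin 2 in MOLM-13 (0.69 ± 0.19, adjusted p = 0.0428) and with both hairpins in MV411 (hairpin 1 0.90 ± 0.18, adjusted p = 0.0127; hairpin 2 0.59 ± 0.18, adjusted p = 0.0369). With hairpin 1 in MOLM-13 the difference was 0.49 ± 0.18 (adjusted p = 0.146). The pooled MOLM-13 call was lost without scramble replicate 1, 2 or 3 (adjusted p = 0.0608, 0.107 and 0.139). The pooled MV411 call was lost without scramble replicate 1 or 3 or hairpin 1 replicate 1 or 2 (adjusted p = 0.137, 0.13, 0.0511 and 0.0536). Scaling by library totals alone ended both (0.42, adjusted p = 0.0891 in MOLM-13; 0.55, adjusted p = 0.0718 in MV411), as did testing without a filter on low counts (adjusted p = 0.206 and 0.0597). Of the single hairpins, the MOLM-13 hairpin 2 call was lost without any 1 of its 6 libraries except hairpin 2 replicate 3 (adjusted p = 0.0629 to 0.16). The MV411 hairpin 1 call was lost without hairpin 1 replicate 1 or scramble replicate 3 (adjusted p = 0.0574 and 0.0595), and the hairpin 2 call without any 1 of its 6 libraries except scramble replicate 2 (adjusted p = 0.0645 to 0.123). These 3 calls were also lost with library totals alone (adjusted p = 0.0602, 0.0563 and 0.131), and that of MOLM-13 without a filter (adjusted p = 0.203). That of MOLM-13 was lost with the replicate number as a block too (0.69, adjusted p = 0.0727), though numbers were not taken as pairing there. Without all MV411 libraries numbered 2 the pooled MV411 call was lost (0.89, adjusted p = 0.0547). With the replicate number as a block and all libraries kept, MALAT1 passed in MV411 pooled (0.77, adjusted p = 0.0123). It also passed there with hairpin 1 (0.91, adjusted p = 0.000513) and hairpin 2 (0.60, adjusted p = 0.00183).

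In SKNO1 MALAT1 was at 3746, 3231 and 3967 CPM with scramble, 4862, 3755 and 1954 with hairpin 1, and 4617, 3736 and 4429 with hairpin 2. Hairpin 1 replicate 3 was the lowest and hairpin 1 replicate 1 the highest of these 9 libraries, and the groups overlapped (0.09 ± 0.23, adjusted p = 0.881). Combining the lines, MALAT1 rose by a log2 fold change of 0.48 ± 0.12 (1.39-fold; adjusted p = 0.00732). That call held when each of the 27 libraries was left out in turn (0.40 to 0.53, adjusted p = 0.000213 to 0.0288) and was lost with library totals alone (0.30, adjusted p = 0.0936).

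NEAT1 and MALAT1 were also set against each other within each library, a measure that does not depend on library scaling. NEAT1 counts were 13.99%, 9.47% and 12.1% of MALAT1 counts in MOLM-13 scramble libraries, 18.9%, 12.9% and 12.8% with hairpin 1, and 18.8%, 19.95% and 12.4% with hairpin 2. The MOLM-13 groups overlapped, and the mean log2 ratio differed by 0.42 (two-sided exact permutation test over 84 splits, p = 0.119; with Benjamini-Hochberg adjustment over the 6 ratio tests, 0.357). In MV411 the ratio was 14.6%, 17.6% and 9.55% with scramble, 9.12%, 6.95% and 6.33% with hairpin 1 and 16.6%, 20.2% and 8.80% with hairpin 2. All 3 hairpin 1 libraries were under the scramble libraries and those of hairpin 2 lay around them, and the pooled difference was -0.39 (exact permutation p = 0.381; 0.762 after adjustment). SKNO1 scramble libraries held 19.2%, 19.7% and 18.3%, those of hairpin 1 19.98%, 13.97% and 18.2% and those of hairpin 2 24.1%, 22.1% and 19.7% (difference 0.03, exact permutation p = 0.857). The smallest p that 3 against 6 libraries allow is 0.0119.

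**Figure D2:**
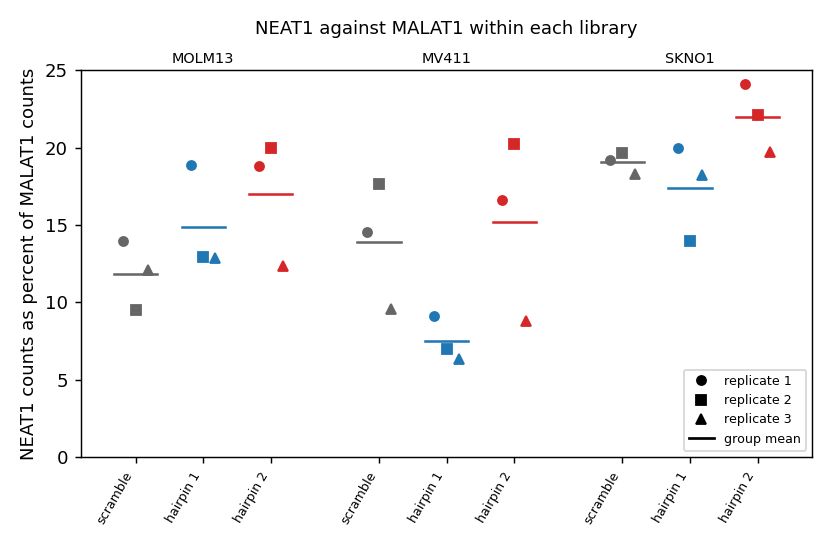
NEAT1 counts as percent of MALAT1 counts (y axis, from 0) in each library by line and hairpin (x axis), with replicate numbers as marker shapes and bars as group means. In MV411 the hairpin 1 libraries, at 6.33% to 9.12%, lie under the scramble libraries and the hairpin 2 libraries lie around them.

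RBM14, a transcriptional coactivator that binds RNA and has a prion-like domain, fell in MOLM-13 and MV411. In MOLM-13 its RNA was at 47.1, 45.4 and 48.99 CPM with scramble, 27.6, 24.3 and 21.5 with hairpin 1 and 23.6, 35.3 and 25.0 with hairpin 2. The scramble libraries lay within a narrow band above all 6 knockdown libraries, and the log2 fold change was -0.80 ± 0.16 (0.575 of scramble; adjusted p = 0.0082). In MV411 it was at 34.2, 44.2 and 38.8 CPM with scramble, 19.7, 20.9 and 16.8 with hairpin 1 and 25.8, 31.5 and 15.5 with hairpin 2. The groups did not overlap, and the log2 fold change was -0.83 ± 0.22 (0.563 of scramble; adjusted p = 0.0484). In SKNO1 it was at 49.5, 37.8 and 57.7 CPM with scramble, 58.6, 41.2 and 59.8 with hairpin 1 and 54.5, 49.8 and 55.1 with hairpin 2, so that the groups overlapped (0.14 ± 0.17, adjusted p = 0.751).

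By hairpin, RBM14 passed with hairpin 1 (-0.92 ± 0.19, adjusted p = 0.0215) and hairpin 2 (-0.69 ± 0.19, adjusted p = 0.0496) in MOLM-13 and with hairpin 1 in MV411 (-1.03 ± 0.23, adjusted p = 0.0259). With hairpin 2 in MV411 the difference was -0.66 ± 0.23 (adjusted p = 0.0754), and with the replicate block it passed (-0.70, adjusted p = 0.0131), as it did without hairpin 2 replicate 2 (-0.91, adjusted p = 0.0159). The hairpin 1 call in MOLM-13 was lost without hairpin 1 replicate 2 or 3 or scramble replicate 2 or 3 (adjusted p = 0.0655 to 0.0876), the hairpin 2 call there without any 1 of its 6 libraries except hairpin 2 replicate 2 (adjusted p = 0.0919 to 0.145), and the hairpin 1 call in MV411 without any 1 except scramble replicate 1 (adjusted p = 0.0618 to 0.104). With the replicate block and all libraries kept, the MV411 hairpin 1 difference was -1.04 (adjusted p = 0.00401). The block ended the MOLM-13 hairpin 2 call (-0.71, adjusted p = 0.0665), though numbers were not taken as pairing in that line.

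The pooled MOLM-13 call held when each of its 9 libraries was left out (-0.92 to -0.73, adjusted p = 0.000784 to 0.043). The pooled MV411 call was lost without any 1 of its libraries other than hairpin 2 replicate 2 (adjusted p = 0.0646 to 0.169), with RLE size factors (adjusted p = 0.0503) without the structured RNAs (adjusted p = 0.0547) and without all MV411 libraries numbered 2 (-0.90, adjusted p = 0.0838), and had adjusted p = 0.028 with the replicate block. Combining the lines, RBM14 fell by 0.52 ± 0.13 on the log2 scale (adjusted p = 0.00717), and the call held when each of the 27 libraries was left out (adjusted p = 0.00122 to 0.0207).

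RBM14 shares exons with a readthrough gene, RBM14-RBM4 (ENSG00000248643, chr11:66616626-66646469), which joins it to RBM4, and RSEM divided reads between them. The readthrough was at 6.50, 5.95 and 4.22 CPM in MOLM-13 scramble libraries, 6.02, 8.95 and 10.8 with hairpin 1 and 16.7, 8.08 and 8.05 with hairpin 2. It was at 4.48, 8.26 and 5.45 in MV411 scramble libraries, 10.3, 12.4 and 10.3 with hairpin 1 and 8.18, 7.50 and 5.52 with hairpin 2. With the lines combined it rose (0.57 ± 0.16, adjusted p = 0.0119) while RBM14 fell. With the reads of both summed, RBM14 still fell in MOLM-13 (-0.50, adjusted p = 0.0309) and no longer passed in MV411 (-0.54, adjusted p = 0.129). For the lines combined the summed difference was -0.30 (adjusted p = 0.0485), against -0.52 for the RBM14 row alone. The single-hairpin calls of MOLM-13 hairpin 2 (-0.37, adjusted p = 0.138) and MV411 hairpin 1 (-0.58, adjusted p = 0.154) were lost with this sum, and the former also with library totals alone (adjusted p = 0.108). RBM4 itself did not pass in any line (log2 fold changes -0.05 in MOLM-13, -0.08 in MV411 and 0.26 in SKNO1; adjusted p = 0.824, 0.803 and 0.438).

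The effect of knockdown on RBM14 differed between SKNO1 and MOLM-13 (interaction 0.96 ± 0.26 on the log2 scale, adjusted p = 0.042), with 1 of 9 member rows past the threshold against 3.32% of all 21262 genes tested. Between SKNO1 and MV411 the difference was 0.98 ± 0.26 and did not pass (adjusted p = 0.0586; 1.44% of genes passed). It passed in DESeq2 (0.95, adjusted p = 0.0183) and without a filter on low counts (1.00, adjusted p = 0.00873). Leaving out MV411 hairpin 2 replicate 2 or SKNO1 hairpin 1 replicate 2 also let it pass (adjusted p = 0.0268 and 0.0327). With the replicate block it passed too (adjusted p = 0.0171), but this fit blocked all lines, and numbers were not taken as pairing in SKNO1 or MOLM-13. Between MV411 and MOLM-13 0 of 9 member rows passed in edgeR or DESeq2, with 0 at an unadjusted p under 0.05, and 0.0047% of all genes passed. The call against MOLM-13 was lost without any 1 of the 18 libraries of these lines (adjusted p = 0.0524 to 0.114) except MOLM-13 hairpin 1 replicate 1, MOLM-13 hairpin 2 replicate 2 and SKNO1 hairpin 1 replicates 1 and 2, with RLE size factors (adjusted p = 0.052), with library totals alone (0.92, adjusted p = 0.162) and with the readthrough added (0.68, adjusted p = 0.102). For NEAT1 the difference between SKNO1 and MOLM-13 was -0.86 ± 0.42 (adjusted p = 0.273; 0.0428 without a filter on low counts), and for MALAT1 it was -0.48 ± 0.27 (adjusted p = 0.364). With the filter, no difference between these lines was thus shown for NEAT1 or MALAT1.

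NONO, the protein of this set that CARM1 methylates, did not pass in the pooled comparison of any line with TMM scaling. In MOLM-13 it was at 279, 331 and 306 CPM with scramble, 242, 247 and 264 with hairpin 1 and 199, 221 and 281 with hairpin 2. Only hairpin 2 replicate 3 overlapped the scramble libraries, and the log2 difference was -0.29 ± 0.13 (adjusted p = 0.145). In MV411 it was at 407, 385 and 474 CPM with scramble, 298, 287 and 352 with hairpin 1 and 300, 299 and 390.0 with hairpin 2. Again hairpin 2 replicate 3 alone overlapped, and the difference was -0.38 ± 0.14 (adjusted p = 0.137; 0.0513 with the replicate block). By hairpin, the block gave -0.43 (adjusted p = 0.016) for hairpin 1 and -0.34 (adjusted p = 0.0258) for hairpin 2 in MV411, where the fit without it gave adjusted p = 0.131 and 0.166. In SKNO1 NONO was at 369, 291 and 370.0 CPM with scramble, 372, 291 and 424 with hairpin 1 and 406, 355 and 322 with hairpin 2, which overlapped throughout (0.07 ± 0.16, adjusted p = 0.864). Over the 3 lines combined the difference was -0.20 ± 0.09 (adjusted p = 0.101), and without SKNO1 scramble replicate 2 it passed (-0.25, adjusted p = 0.0398). With library totals alone NONO passed in MOLM-13 (-0.46, adjusted p = 0.0454), MV411 (-0.565, adjusted p = 0.0181) and all lines (-0.377, adjusted p = 0.00179). That scaling moved the median of all genes by -0.167, -0.188 and -0.176 in these comparisons.

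SFPQ and PSPC1, the partners of NONO, did not pass in any line. SFPQ ranged from 201 to 243 CPM in MOLM-13 scramble libraries and from 141 to 209.5 in its knockdown libraries (-0.33 ± 0.14, adjusted p = 0.138). It ranged from 204.5 to 237 and from 169.5 to 219 in MV411 (-0.11 ± 0.13, adjusted p = 0.699), and from 241 to 257 and from 190.3 to 271 in SKNO1 (-0.03 ± 0.15, adjusted p = 0.954). PSPC1, the least abundant of the family per length in all 3 lines, differed by 0.15 ± 0.13, -0.01 ± 0.14 and 0.17 ± 0.16 in MOLM-13, MV411 and SKNO1 (adjusted p = 0.45, 0.971 and 0.659). The ratio of NONO to SFPQ counts ranged from 126% to 143% in MOLM-13 scramble libraries and from 109% to 184% in knockdown libraries (log2 difference 0.05, exact permutation p = 0.798). In MV411 it ranged from 172% to 232% and from 132% to 182%, and the difference of -0.27 did not pass (exact permutation p = 0.0714; 0.357 after adjustment). In SKNO1 the difference was 0.10 (exact permutation p = 0.607).

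HNRNPK, an abundant RNA- and DNA-binding protein that acts on how the NEAT1 3' end is made, overlapped between scramble and knockdown in each line. Its log2 differences were -0.23 ± 0.14, 0.05 ± 0.18 and 0.03 ± 0.19 in MOLM-13, MV411 and SKNO1 (adjusted p = 0.279, 0.914 and 0.962). The 2 MATR3 rows share exons, so the division of reads between them is uncertain. The smaller one (ENSG00000280987) was at 117, 114 and 121 CPM in SKNO1 scramble libraries, 90.1, 146 and 62.8 with hairpin 1 and 60.7, 71.6 and 80.2 with hairpin 2. All hairpin 2 libraries lay under the scramble libraries, while those of hairpin 1 lay on both sides of them. It fell over the 3 lines combined (-0.36 ± 0.12, adjusted p = 0.0369), and did not pass in a single line (adjusted p = 0.172, 0.453 and 0.406 in MOLM-13, MV411 and SKNO1; 0.0372 in MOLM-13 without hairpin 1 replicate 3). That call was lost without any 1 of 8 libraries: MOLM-13 scramble replicate 2 or 3, MV411 scramble replicate 3, SKNO1 scramble replicate 1, 2 or 3 and SKNO1 hairpin 2 replicate 1 or 2 (adjusted p = 0.0535 to 0.0897). The larger row (ENSG00000015479) did not pass over the 3 lines combined (-0.20 ± 0.11, adjusted p = 0.211), and with both rows summed MATR3 did not pass either (-0.24, adjusted p = 0.102).

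**Figure D3:**
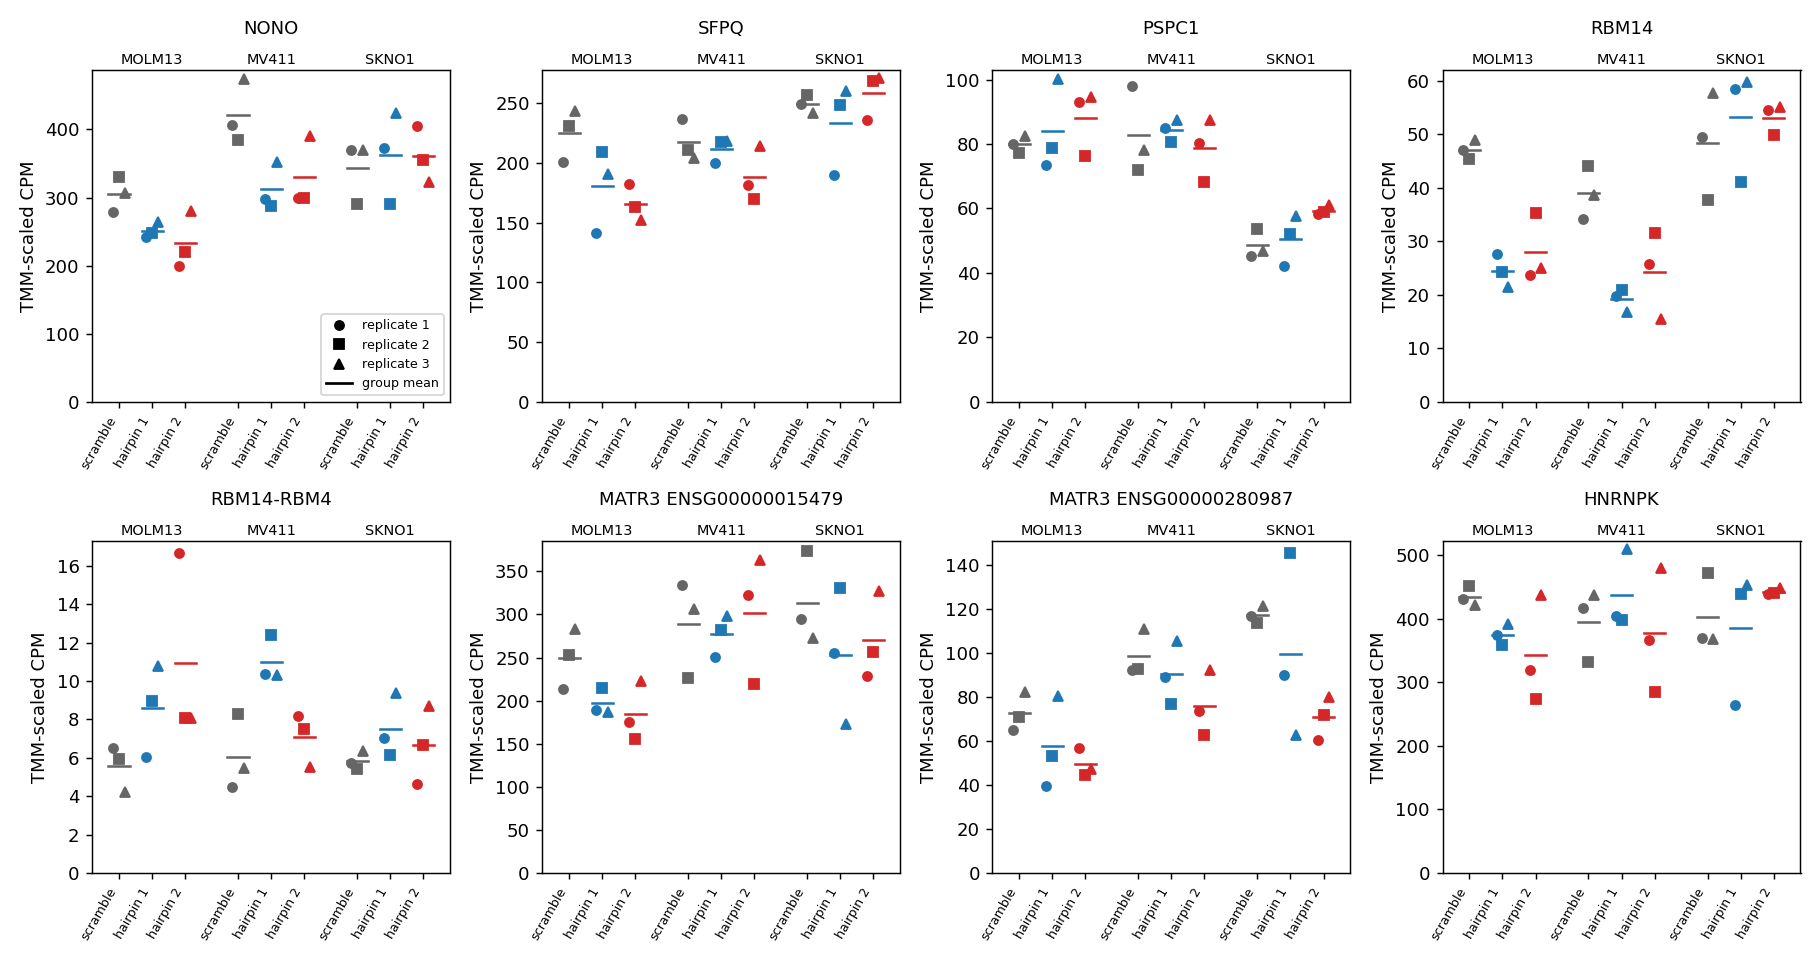
TMM-scaled CPM (y axes, from 0) of the 6 protein genes, with both MATR3 rows and the RBM14-RBM4 readthrough, in each of the 27 libraries by line and hairpin (x axes), with replicate numbers as marker shapes and bars as group means. RBM14 is the gene whose scramble libraries lie clear above all knockdown libraries in both MOLM-13 and MV411.

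Counted together, 3 of the 9 member rows tested passed in MOLM-13 (2 higher, 1 lower), where 15.6% of all 17732 genes tested passed. In MV411 2 of 9 passed (1 higher, 1 lower), against 5.43% of all genes (1.71% higher, 3.72% lower). In SKNO1 0 of 9 passed in edgeR, against 0.0434% of all genes, with 0 at an unadjusted p under 0.05 and 0 in DESeq2. Over the 3 lines combined 3 of 9 passed (1 higher, 2 lower), against 19.9% of all genes. With scaling by library totals alone, which moved the median log2 fold change of all genes by -0.12 to -0.25 in comparisons of knockdown or a hairpin with scramble, the counts were 5, 3 and 6 in MOLM-13, MV411 and all lines, and all of these were lower. They were HNRNPK, both MATR3 rows, NONO and RBM14 in MOLM-13, and the smaller MATR3 row, NONO and RBM14 in MV411. Over all lines they were those of MOLM-13 and SFPQ. The share of all genes passing with library totals alone is not given here.

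For single hairpins, 1 member row passed with hairpin 1 and 3 with hairpin 2 in MOLM-13, where 6.38% and 9.42% of all genes passed. In MV411 2 passed with hairpin 1 and 1 with hairpin 2, where 6.51% and 18.6% of all genes passed. With the replicate block the count for hairpin 2 was 5, and the share of all genes passing with the block is not given here. In SKNO1 0 passed with either hairpin, where 0.532% and 11.2% of all genes passed. At an unadjusted p under 0.05 these SKNO1 counts were 0 and 1 (MATR3), and in DESeq2 they were 0 and 1 (MATR3). Comparing hairpin 2 with hairpin 1, 0 members passed in each of the 3 lines, also in DESeq2 and at an unadjusted p under 0.05, where 0%, 11.5% and 9.52% of all genes passed in MOLM-13, MV411 and SKNO1. For NEAT1 the hairpin 2 minus hairpin 1 difference was 0.44 ± 0.28, 0.73 ± 0.35 and 0.59 ± 0.29 in MOLM-13, MV411 and SKNO1 (adjusted p = 1, 0.212 and 0.226). It passed in SKNO1 without hairpin 1 replicate 1 (1.10, adjusted p = 0.0101) and in MV411 without a filter on low counts (0.72, adjusted p = 0.00271), and RBM14 passed in MV411 without hairpin 2 replicate 3 (0.61, adjusted p = 0.0399).

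**Figure D4:**
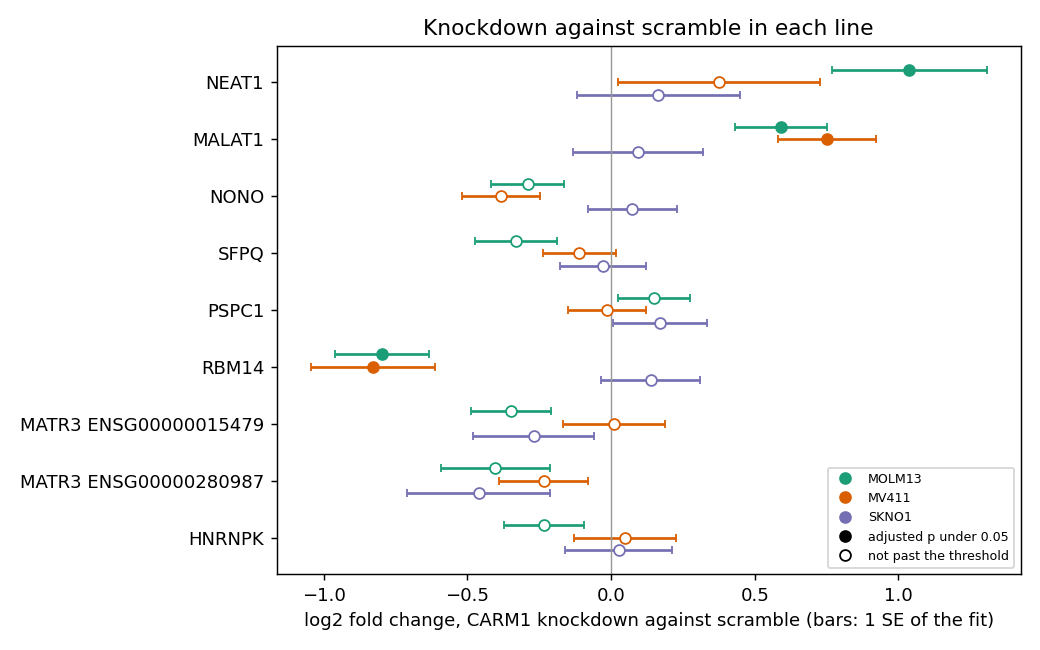
Log2 fold change of each member row in CARM1 knockdown against scramble (x axis) by gene (y axis) and line (colour), with bars of 1 SE of the edgeR fit and filled points for adjusted p under 0.05. The filled points are NEAT1, MALAT1 and RBM14 in MOLM-13, at 1.04, 0.59 and -0.80, and MALAT1 and RBM14 in MV411, at 0.75 and -0.83. With library totals alone the small SKNO1 values of MALAT1, NONO, RBM14 and HNRNPK turn from above 0 to below it.

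Levels of these RNAs were also compared between the scramble libraries of the lines, with the shares of all genes given below. Per kilobase of annotated exon, scramble libraries of MOLM-13 held 399 ± 31.1 CPM of MALAT1 (SD, n = 3), 85.0 ± 3.05 of HNRNPK, 57.7 ± 4.89 of NONO and 30.3 ± 2.94 of SFPQ. Below these stood the larger MATR3 row at 20.7 ± 2.88, NEAT1 at 18.3 ± 3.87 and PSPC1 at 16.6 ± 0.551. NEAT1 was divided by 22.767 kb of annotated exon, close to the length of its long transcript. Its counts do not separate the short forms, so its place in this order holds only for that length. At that length NEAT1 did not differ beyond the spread from the larger MATR3 row or PSPC1. RBM14 at 11.98 ± 0.457 and the smaller MATR3 row at 11.5 ± 1.37 did not differ beyond their spread. In SKNO1 NEAT1 was at 30.4 ± 2.20 and PSPC1 at 10.1 ± 0.940, and in MV411 they were at 15.3 ± 7.03 and 17.2 ± 2.83.

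Comparing scramble libraries, NEAT1 was higher in SKNO1 than in MV411 (log2 difference 1.00 ± 0.28, adjusted p = 0.0102) and than in MOLM-13 (0.74 ± 0.28, adjusted p = 0.0415). The second of these was lost without any 1 of MOLM-13 scramble replicates 2 or 3 or SKNO1 scramble replicates 1, 2 or 3 (adjusted p = 0.0596 to 0.133). Between MV411 and MOLM-13 NEAT1 passed only without MV411 scramble replicate 2 (-0.69, adjusted p = 0.0288; -0.26, adjusted p = 0.538 with it) among the 6 libraries left out in turn. PSPC1 was lower in SKNO1 than in MOLM-13 (-0.71 ± 0.14, adjusted p = 0.00134) and MV411 (-0.76 ± 0.14, adjusted p = 0.000862). MALAT1 was lower in MV411 than in MOLM-13 (-0.52 ± 0.18, adjusted p = 0.0435) and SKNO1 (0.58 ± 0.18 for SKNO1 against MV411, adjusted p = 0.0152). NONO was higher in MV411 than in MOLM-13 (0.47 ± 0.14, adjusted p = 0.0273), as was the smaller MATR3 row (0.44 ± 0.13, adjusted p = 0.0267), which was also higher in SKNO1 than in MOLM-13 (0.70 ± 0.13, adjusted p = 0.000885).

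In each of these 3 comparisons of lines 3 of 9 member rows passed, against 30.8% of all genes for MV411 with MOLM-13, 56% for SKNO1 with MOLM-13 and 55.5% for SKNO1 with MV411. All 3 calls between MV411 and MOLM-13 were lost without any 1 of several scramble libraries: MALAT1 without any of MOLM-13 replicates 1, 2 and 3 or MV411 replicates 1 and 3 (adjusted p = 0.0567 to 0.132), NONO without MOLM-13 replicate 1, 2 or 3 or MV411 replicate 3 (adjusted p = 0.052 to 0.107), and MATR3 without MOLM-13 replicate 1 or 2 or MV411 replicate 3 (adjusted p = 0.101 to 0.118). Those of NONO and MATR3 were also lost without a filter (adjusted p = 0.0576 and 0.0799), and that of MALAT1 without the structured RNAs (adjusted p = 0.051) and with library totals alone (adjusted p = 0.124). MALAT1 between SKNO1 and MV411 was lost without MV411 scramble replicate 1 (adjusted p = 0.0565) or SKNO1 scramble replicate 3 (adjusted p = 0.0539). RBM14 passed between SKNO1 and MV411 without SKNO1 scramble replicate 2 (0.46, adjusted p = 0.0191; 0.32, adjusted p = 0.118 with it). With library totals alone PSPC1 between SKNO1 and MOLM-13 no longer passed (-0.23, adjusted p = 0.148), and the median of all genes in that comparison moved by 0.49.

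Genes of 34 other proteins found in paraspeckles were counted in the same fits. In MOLM-13 9 of 33 tested fell and 1 rose, with a list median of -0.34 against 0.05 for all genes tested, where 9.09% of all genes fell and 6.48% rose. Those named by smallest p were HNRNPR (-0.68 ± 0.11, adjusted p = 0.00198), SRSF10 (-0.71 ± 0.12, adjusted p = 0.00369) and TOE1 (-0.81 ± 0.15, adjusted p = 0.00513), an RNA-binding protein, a splicing factor and a nuclear deadenylase. ZC3H6, a zinc finger protein, was the one that rose (0.62 ± 0.16, adjusted p = 0.0222). Without scramble replicate 2 or 3 of MOLM-13 3 genes of the list fell, and without any other 1 of its libraries 8 to 13 did. Shares of all genes in those fits are not given here.

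In MV411 1 of 33 tested fell, where 3.72% of all genes fell, with a list median of -0.24 against 0.01 for all genes. The count was 4 with the replicate block, 6 in DESeq2, 5 with the hairpins as separate groups, 11 with library totals alone and 3 without scramble replicate 2. The gene was DAZAP1, an RNA-binding protein of splicing and translation (-0.98 ± 0.14, adjusted p = 0.00221), which fell with hairpin 1 (-1.03 ± 0.16, adjusted p = 0.00561) and hairpin 2 (-0.92 ± 0.16, adjusted p = 0.00312). With hairpin 2 of MV411 6 genes of the list fell, TOE1 (-0.71 ± 0.19, adjusted p = 0.023) and HNRNPR (-0.76 ± 0.22, adjusted p = 0.036) among them, where 10.2% of all genes fell. That count was 12 with the replicate block, 13 with library totals alone, 1 without hairpin 2 replicate 1, scramble replicate 1 or scramble replicate 3, 2 without hairpin 2 replicate 2 and 10 without hairpin 2 replicate 3. In SKNO1 0 of 32 passed in the pooled comparison (4 at an unadjusted p under 0.05, and 1, SMARCA4, in DESeq2), where 0.0434% of all genes passed, and the list median was 0.05 against 0.01. SMARCA4, a chromatin remodelling ATPase, rose with hairpin 2 of SKNO1 (0.61 ± 0.16, adjusted p = 0.0311), where 5.54% of all genes rose. Over the 3 lines combined 9 of 33 fell (21 with library totals alone) and 0 rose, against 9.79% and 10.1% of all genes, led by SRSF10 (-0.54 ± 0.10, adjusted p = 0.000292), NUDT21 (-0.59 ± 0.11, adjusted p = 0.000389), a 3' end processing factor, and HNRNPR (-0.53 ± 0.10, adjusted p = 0.000493). The percentages of all genes are from TMM-scaled edgeR fits without a block, and shares under the alternatives are not given.

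**Figure D5:**
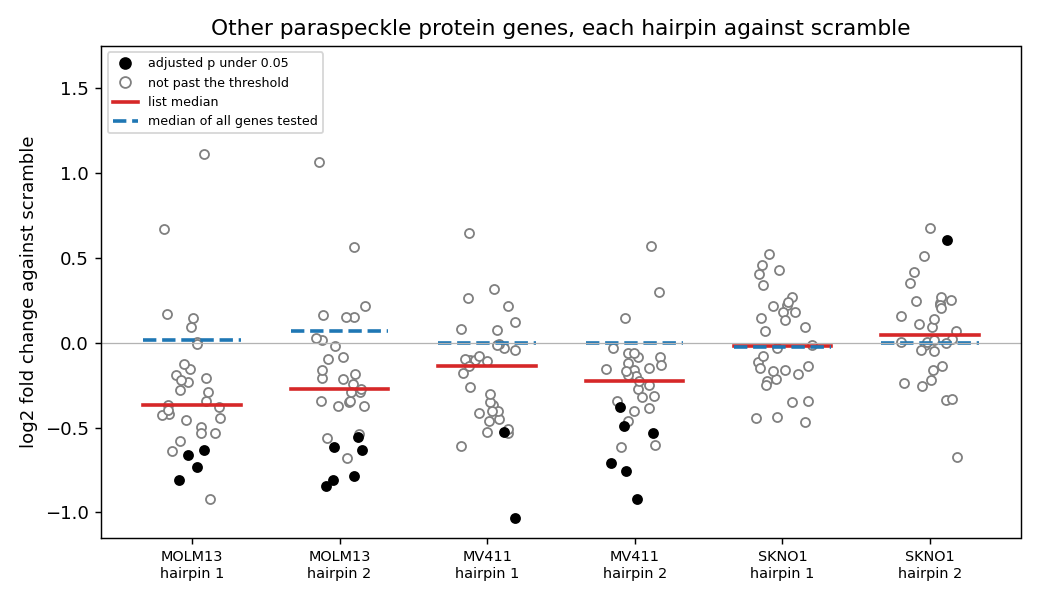
Log2 fold change against scramble (y axis) of the other paraspeckle protein genes for each hairpin and line (x axis), with filled points for adjusted p under 0.05, red bars for the list median and dashed blue bars for the median of all genes tested. In MOLM-13 and MV411 the list medians lie at -0.14 to -0.37 and the filled points are below 0, and in SKNO1 the medians lie near 0.

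Nuclear speckle proteins, the company of MALAT1, gave 4 lower and 0 higher of 12 tested in MOLM-13, where 9.09% of all genes fell, with a list median of -0.22. The splicing factors SRSF1 (-0.62 ± 0.11, adjusted p = 0.00437), SRSF3 (-0.54 ± 0.11, adjusted p = 0.00845) and SRSF7 (-0.64 ± 0.16, adjusted p = 0.0184) were among them. In MV411 4 of 12 fell with hairpin 2, where 10.2% of all genes fell, among them RNPS1 (-0.65 ± 0.12, adjusted p = 0.00413) and SRSF2 (-0.79 ± 0.16, adjusted p = 0.00586). In edgeR 0 of 12 passed in MV411 pooled or with hairpin 1 (5 and 2 at an unadjusted p under 0.05, and 1 each in DESeq2), where 5.43% and 6.51% of all genes passed. In SKNO1 0 of 12 passed pooled or with hairpin 1 or 2 (1, 1 and 3 at an unadjusted p under 0.05, and 0, 1 and 0 in DESeq2), where 0.0434%, 0.532% and 11.2% of all genes passed. Over the 3 lines combined 4 of 12 fell, against 9.79% of all genes, with SRSF1 at -0.47 ± 0.09 (adjusted p = 0.000582). In MOLM-13 these genes were lower in the comparison in which MALAT1 RNA was higher.

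Of the genes that act on RNAs with inverted repeats, ADAR, the main editing enzyme of such RNAs, did not pass in MOLM-13, MV411 or SKNO1 (-0.25 ± 0.13, 0.13 ± 0.14 and 0.21 ± 0.16; adjusted p = 0.231, 0.667 and 0.564). STAU1, which binds double-stranded RNA and moves such messages out of paraspeckles, rose with hairpin 2 of SKNO1 (0.55 ± 0.17, adjusted p = 0.0485). NICN1, whose message carries inverted Alu repeats, was at 0.52 ± 0.22 in MOLM-13, -0.32 ± 0.21 in MV411 and 0.23 ± 0.29 in SKNO1 and did not pass (adjusted p = 0.122, 0.445 and 0.746). Total RNA was measured, so nuclear and cytoplasmic RNA of such genes were not separated.

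Around NEAT1 and MALAT1 on chromosome 11, 13 of 14 listed genes were in the table and 11 were tested in MOLM-13, where 1 rose and 1 fell, against 6.48% and 9.09% of all genes. POLA2, a subunit of DNA polymerase alpha, fell in MOLM-13 (-1.13 ± 0.16, adjusted p = 0.000974), MV411 (-1.09 ± 0.17, adjusted p = 0.00313) and with hairpin 2 of SKNO1 (-0.95 ± 0.18, adjusted p = 0.0063). MAP3K11, a kinase of stress signalling, rose in MOLM-13 (0.43 ± 0.13, adjusted p = 0.0392). With hairpin 2 of SKNO1 4 of 13 neighbours rose, against 5.54% of all genes, among them MAP3K11 (1.04 ± 0.16, adjusted p = 0.00261), FRMD8 (0.88 ± 0.19, adjusted p = 0.0128) and FAM89B (0.79 ± 0.19, adjusted p = 0.0211), while neither NEAT1 nor MALAT1 passed there. Of 5 transcription factors reported at the NEAT1 promoter, 0 passed in MOLM-13 in edgeR (2 at an unadjusted p under 0.05, EPAS1 and HIF1A, and 1, EPAS1, in DESeq2), where 15.6% of all genes passed. EPAS1, a hypoxia-inducible factor, rose in MV411 (2.33 ± 0.55, adjusted p = 0.0306), and HIF1A rose with hairpin 2 of MV411 (0.62 ± 0.18, adjusted p = 0.034). Over the 3 lines combined 2 of 5 rose, against 10.1% of all genes: EPAS1 (1.57 ± 0.32, adjusted p = 0.000876) and HIF1A (0.40 ± 0.14, adjusted p = 0.0381).

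Over the 27 libraries, with the mean of each line subtracted from log2 CPM, NEAT1 and MALAT1 had a Pearson correlation of 0.63. NEAT1 correlated at -0.69 with HNRNPK, -0.62 with SFPQ and -0.56 with NONO, and MALAT1 at -0.59 with RBM14 and -0.58 with NONO. Among 10252 other genes those most like NEAT1 were GMDS-AS1 (0.92), RBMS1P1 (0.90), PTPRB (0.90), KCNQ1OT1 (0.89) and MBD5 (0.89). Those most like NONO were JOSD1 (0.92), EIF4H (0.87), STK24 (0.87), ATF4 (0.86) and VHL (0.86). These are descriptions of libraries that share hairpins, scaling and, within MV411, replicate number, and carry no test.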

How the data were processed

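RNA was taken on day 3 from 27 libraries in 9 groups of 3. Per the labels' protocols, total RNA was depleted of ribosomal RNA and made into stranded libraries. The submitters' processing notes name STAR 2.5.3, RSEM and the build GRCh38.p7. The annotation release and the strand setting of the counting are not given in the sources used here. The authors deposited RSEM expected counts, not scaled for depth or length. RSEM divides reads between genes that share them: NEAT1 held fractional counts in 24 libraries, RBM14, HNRNPK and both MATR3 rows in 27, NONO in 26, PSPC1 in 7, SFPQ in 2 and MALAT1 in 1.

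Counts were rounded and tested with the edgeR 4.0.16 quasi-likelihood F-test in R 4.3.3, after filterByExpr (minimum count 10, minimum total 15) and TMM scaling. Two-sided p-values received Benjamini-Hochberg adjustment across every gene in the fit, and calls had an adjusted p under 0.05. DESeq2 1.42.0, run on the same genes, was an alternative. Each line was fitted on its 9 libraries, lines were combined, and their knockdown effects compared, in fits of all 27, and scramble levels were compared in a fit of the 9 scramble libraries. The test was run on simulated counts for the MOLM-13 comparison only. CPM are TMM-scaled.

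Positions and exon lengths came from GENCODE 29, and promoters from RefSeq, which matched 6 of the 8 symbols (not NEAT1 or SFPQ). Motifs were counted on both strands. In MV411, deviations of same-numbered libraries from their group means correlated in all 9 pairs (0.14 to 0.78, threshold 0.1), so replicate numbers were taken as pairing. No label gives this pairing. Numbers were not taken as pairing in MOLM-13 (-0.34 to 0.45) or SKNO1 (-0.22 to 0.59), where 5 of 9 pairs in each line were over 0.1.

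The members and gene lists were chosen with earlier results of these data known. Genes named were all members, CARM1, up to 3 genes per direction of each list by smallest p among those past the threshold, genes that overlap a member, and the 5 genes most correlated with NEAT1 and with NONO (mean log2 CPM at least 2, prior count 2). ADAR and NICN1, which fall outside this rule, were chosen after their values were seen. Alternatives were RLE size factors, no filter, DESeq2, leaving out structured RNAs, the hairpins as separate groups, a replicate block, leaving out each library and, chosen after seeing the data, library totals only, overlapping rows summed and MV411 without libraries numbered 2. A marker of another cell type is not reported here.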

Additional observations from a re-analysis of the deposited data

Results flagged for a closer look

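The members MALAT1, HNRNPK and PSPC1 each had a knockdown library apart from the other 5 of its line by Dixon's test at 95%, which chance gives in about 1 of 20 groups. MALAT1 was lowest in SKNO1 hairpin 1 replicate 3, at 1954 CPM. HNRNPK was lowest in SKNO1 hairpin 1 replicate 1, at 264.6 CPM. PSPC1 was lowest in MV411 hairpin 2 replicate 2, at 68.2 CPM.

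The knockdown effect differed between lines by an interaction term for RBM14, at 0.96 on the log2 scale for SKNO1 against MOLM-13 (edgeR adjusted p = 0.042). As given above, that call was lost without any 1 of most of the libraries of these lines. It was also lost with RLE size factors, with library totals alone and with the readthrough added. Among the other paraspeckle protein genes, 5 of 33 tested passed in this comparison, against 3.32% of all genes. For these the effect in SKNO1 was above that in MOLM-13 by 1.12 for DAZAP1 (adjusted p = 0.0127), 0.92 for SMARCA4 (adjusted p = 0.0218), 0.82 for HNRNPM (adjusted p = 0.0423), 0.66 for HNRNPUL1 (adjusted p = 0.0445) and 0.83 for TOE1 (adjusted p = 0.0497). DAZAP1 also differed between SKNO1 and MV411, by 1.27 (adjusted p = 0.00676), as 1 of 33 tested, against 1.44% of all genes.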

How the results depend on the processing

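Of the log2 values of single members under alternatives that keep all libraries or leave out the MV411 libraries numbered 2, 636 kept direction and side of the threshold, 34 came to pass, 31 no longer passed and 20 turned. Other values below are counts of member rows past the threshold, and shares of all genes under the same settings are not given. DESeq2 gave 2 for MOLM-13 hairpin 1, 2 for MV411 hairpin 2, 1 for SKNO1 hairpin 2 and 1 for the effect in SKNO1 against MV411. RLE size factors gave 1 in MV411 and 0 for the effect in SKNO1 against MOLM-13. Without structured RNAs MV411 gave 1. Without a filter the counts were 2 (MOLM-13 hairpin 1), 1 (MV411), 3 (MV411 hairpin 2), 1 (MV411 between hairpins), 1 (SKNO1 hairpin 2), 1 (scramble MV411 with MOLM-13), and 2 and 1 for the effect in SKNO1 against MOLM-13 and MV411.

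Library totals only, chosen after seeing the data, gave 5 in MOLM-13, 1 for its hairpin 2, 2 for MV411 hairpin 2, 1 for SKNO1 hairpin 2, 6 over all lines, 8 and 8 for scramble SKNO1 against MOLM-13 and MV411, and 0 for the effect in SKNO1 against MOLM-13. It turned PSPC1 in MOLM-13 (-0.032) and all lines (-0.071), MATR3 ENSG00000015479 (-0.17) and HNRNPK (-0.14) in MV411, and NONO (-0.092), HNRNPK (-0.12), RBM14 (-0.029) and MALAT1 (-0.064) in SKNO1. With SKNO1 hairpins 1 and 2 it turned NONO (-0.097 and -0.086) and RBM14 (-0.038 and -0.021), and it turned RBM14 between them (0.017) and NONO between SKNO1 and MV411 scramble (0.11). The cause was not tested.

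Summing overlapping rows, also chosen after seeing the data, gave 1 in MV411, 1 for its hairpin 1 and 0 for the effect in SKNO1 against MOLM-13, with MATR3 ENSG00000015479 at -0.048 in MV411. Without libraries numbered 2, chosen likewise, MV411 gave 0, MATR3 ENSG00000015479 -0.048 and NEAT1 with hairpin 1 0.43. Without a filter that MATR3 row was at -0.009. With the replicate block MOLM-13 hairpin 2 gave 1, MV411 hairpin 2 gave 5, scramble MV411 against MOLM-13 gave 1 and the effect in SKNO1 against MV411 gave 1, while NEAT1 in MV411 hairpin 1 was 0.073 and RBM14 between SKNO1 hairpins 0.008. Permuted within replicate numbers, which were not taken as pairing in MOLM-13, the NEAT1 to MALAT1 difference there of 0.42 had an exact permutation p = 0.037. That is the smallest p this permutation allows, and it was not adjusted over the 6 ratio tests. In fits where numbers were not taken as pairing, the block ended MALAT1 (0.69, adjusted p = 0.0727) and RBM14 (-0.71, adjusted p = 0.0665) with MOLM-13 hairpin 2, and between scramble libraries NONO (0.46, adjusted p = 0.0555) and MALAT1 (-0.53, adjusted p = 0.0758) for MV411 against MOLM-13 and NEAT1 (0.75, adjusted p = 0.0566) for SKNO1 against MOLM-13, and NEAT1 over all lines passed (0.51, adjusted p = 0.047). The block moved no other member count by over 1.5 times.

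Leaving out 1 library at a time, the counts ranged from 1 to 4 in MOLM-13, 0 to 1 and 0 to 2 for its hairpins 1 and 2, 0 to 2 in MV411 and with each of its hairpins, 0 to 1 between hairpins in MV411 and in SKNO1, 2 to 4 over all lines, 0 to 4, 2 to 3 and 2 to 4 for scramble MV411 against MOLM-13 and SKNO1 against MOLM-13 and MV411, and 0 to 1 for the effect in SKNO1 against MOLM-13 and against MV411. The NEAT1 to MALAT1 difference ranged from -0.035 to 0.12 in SKNO1, and the NONO to SFPQ difference from -0.033 to 0.12 in MOLM-13 and -0.035 to 0.18 in SKNO1.

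Single members that changed direction on leaving out a library ranged as follows. In MV411 these were MATR3 ENSG00000015479 (-0.15 to 0.14), PSPC1 (-0.12 to 0.13), HNRNPK (-0.076 to 0.12) and NEAT1 with hairpin 1 (-0.28 to 0.38). In SKNO1 they were SFPQ (-0.088 to 0.034), NONO (-0.01 to 0.13), HNRNPK (-0.039 to 0.19), NONO with hairpin 1 (-0.067 to 0.21) and hairpin 2 (-0.031 to 0.12), NEAT1 (-0.68 to 0.087) and MALAT1 (-0.38 to 0.22) with hairpin 1, and between hairpins RBM14 (-0.16 to 0.11) and MALAT1 (-0.016 to 0.58). The others were RBM14 between MOLM-13 hairpins (-0.008 to 0.34), PSPC1 between MV411 and MOLM-13 scramble (-0.097 to 0.15), RBM14 between SKNO1 and MOLM-13 scramble (-0.086 to 0.19), and the effects of RBM14 in MV411 against MOLM-13 (-0.12 to 0.12) and NEAT1 in SKNO1 against MV411 (-0.62 to 0.041).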
